A study of Triticum aestivum with 24 samples.

Results

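Among the probe sets of the Affymetrix wheat array, 34 were strongly higher in dry than in wet flag leaves at grain filling in both cultivars studied, TAM 112 and TAM 111, and showed little difference between dry and wet leaves at heading. They were taken from the 37516 non-control probe sets with a signal above 69 on at least 3 arrays, out of 61290 probe sets on the array. Signals were put on a log2 scale after adding 11.71 and averaged over the arrays of a group. A member had a dry minus wet difference of at least 2, or 4-fold, at grain filling in both cultivars, and a difference below 0.5 in size at heading in both. The dry minus wet values of all 4 cultivar and stage settings thus chose the members, and they are given here as a description, with no test.

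The 24 arrays held total RNA of flag leaves of bread wheat grown in a greenhouse, 3 for each of 8 groups. These were dry TAM 112, wet TAM 112, dry TAM 111 and wet TAM 111 at grain filling, and the same 4 at heading. Field capacities of 90% and 50% are named in the labels, without saying which of them was called wet and which dry. It is not stated either whether separate plants made up the 3 replicates, so each p-value reflects only the scatter among these arrays, part or all of which may be technical.

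The flag leaf is the uppermost leaf of the wheat stem, and during grain filling it supplies sugars to the ear while it starts to age and to export its nitrogen. Leaves short of water raise abscisic acid, close their stomata and accumulate protective proteins such as late embryogenesis abundant (LEA) proteins and dehydrins, small heat shock proteins and soluble sugars. Water deficit late in the life of the leaf also overlaps with senescence, in which chlorophyll and photosynthetic proteins are broken down. A probe set is a group of short probes on the array designed against 1 transcript cluster, and a signal is the brightness summarised over those probes. None of the 34 probe sets is paired with a gene in the tables used (0 of 34), which pair 1273 of the other probe sets with a gene, so the members are called by their array identifiers and no function is given to them.

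Arrays of 1 group correlated at 0.951 to 0.971 and arrays of different groups at 0.864 to 0.962 over the tested probe sets. On the principal component that separated the cultivars, the 12 TAM 112 arrays lay between 29.5 and 51.4 and 9 TAM 111 arrays between -62 and -45.2. The other 3 TAM 111 arrays, replicate 2 of wet grain filling, dry heading and wet heading, lay between the cultivars at -10.5 to -1.7. Without these 3 arrays 21 of the 34 still met the rule. The TAM 111 difference between dry and wet leaves at grain filling then moved by over 1.5 times in 4 members and was smaller in each. It was 1.64 in place of 2.83 for Ta.7881.1.A1_at, 1.98 in place of 2.72 for Ta.14510.1.S1_at, 2.37 in place of 3.10 for Ta.30807.1.S1_at and 1.58 in place of 2.32 for Ta.30807.3.S1_at on the log2 scale. At heading 0 members moved by as much, and the largest move was that of Ta.14510.1, at 0.05 in place of -0.42.

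**Figure D1:**
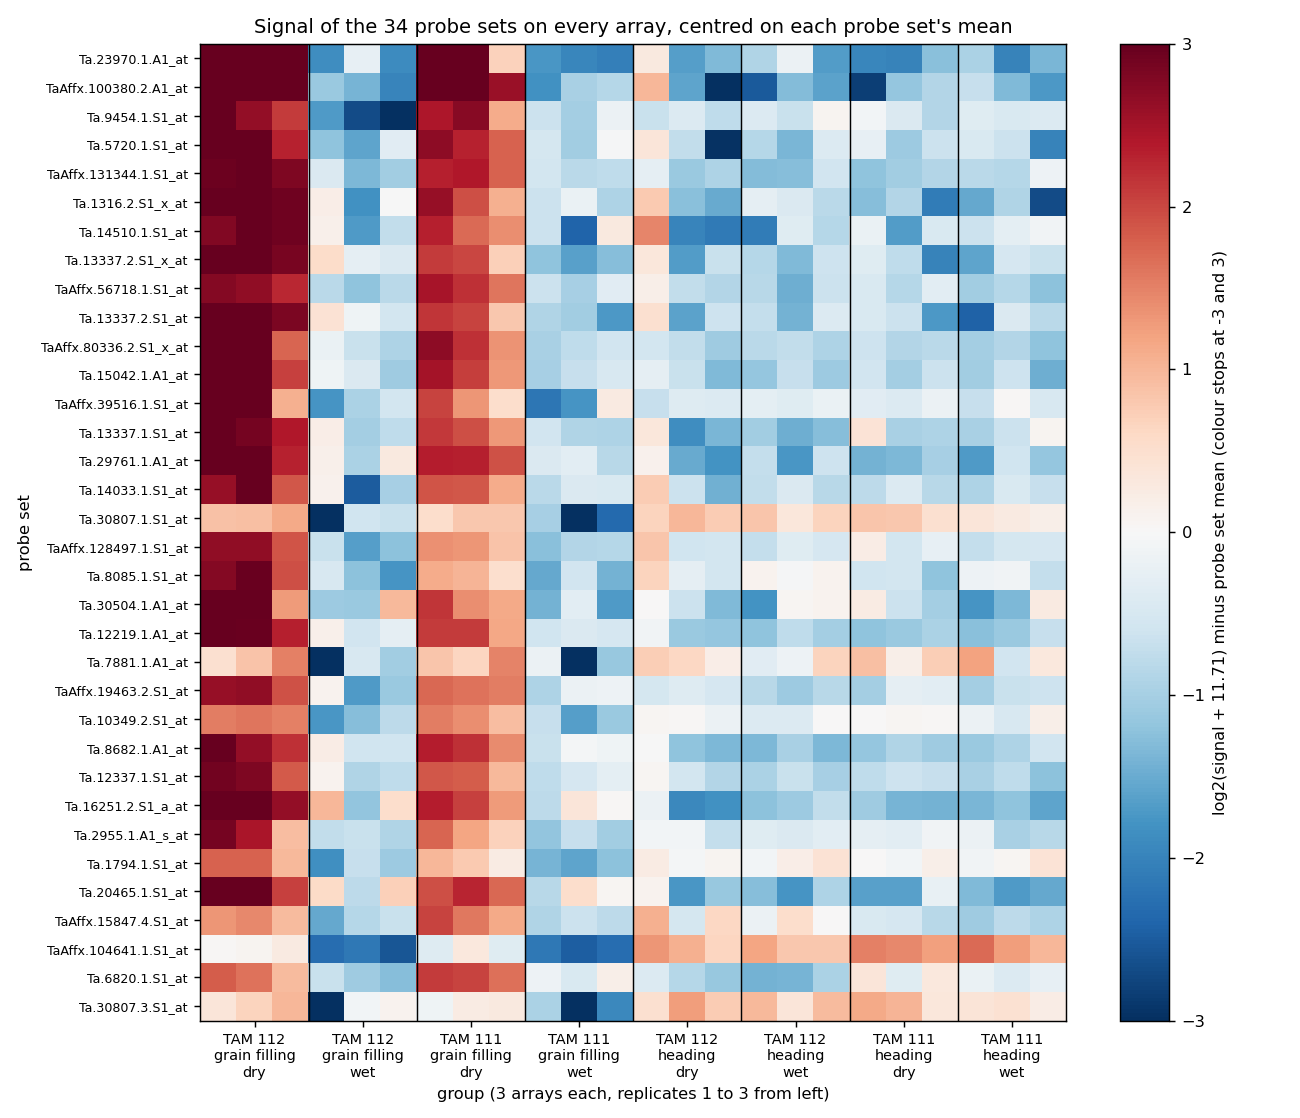
Each row is a probe set and each column an array, grouped by cultivar, stage and water. The colour is log2(signal + 11.71) minus the mean of that probe set, stopping at -3 and 3. The 6 dry grain filling columns are red in nearly all rows, and in the rows of Ta.30807.1, Ta.30807.3, Ta.7881.1 and TaAffx.104641.1 the lowest values are in wet grain filling columns.

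In dry leaves at grain filling the 34 probe sets were a median of 9.92-fold higher than in wet leaves in TAM 112 and 5.58-fold higher in TAM 111. On the log2 scale the median difference was 3.31 in TAM 112, with members between 2.08 and 6.96, and 2.48 in TAM 111, between 2.03 and 5.18. Without the 3 TAM 111 arrays that lay between the cultivars the TAM 111 median was 2.37. The median over all tested probe sets was -0.11 in TAM 112 and -0.03 in TAM 111. At heading the members' median was 0.23 in TAM 112 and 0.21 in TAM 111. In every member the 3 dry arrays lay above the 3 wet arrays at grain filling in both cultivars, as the rule nearly forces, while 16.7% of all tested probe sets did so in TAM 112 and 17% in TAM 111. At heading 1 member did so in TAM 112 and 2 in TAM 111, against 11.5% of all tested probe sets in TAM 112 and 12.9% in TAM 111. In whole leaves, more RNA per cell and more cells of a type that holds the RNA cannot be told apart.

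Within the bounds of the rule the small heading differences did not all point one way. They were above 0 in both cultivars for 18 members, below 0 in both for 4, and of opposite sign for 12. At grain filling the dry minus wet difference was larger in TAM 112 than in TAM 111 for 30 of the 34 (88.2%), and among the other 287 probe sets that passed the grain filling bounds the same held for 73.5%. Without the 3 TAM 111 arrays that lay between the cultivars it held for 32 of the 34, with every TAM 112 array kept.

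Those bounds alone were met by 321 probe sets (0.856% of those tested), and the heading bounds alone by 68.1%. The members were 10.6% of the 321, and 0.0906% of all tested probe sets. Of the 321, 212 (66%) were higher by at least 0.5 at heading too in both cultivars, 53 in TAM 112 alone with a smaller difference in TAM 111, and 14 in TAM 111 alone with a smaller one in TAM 112. The other 8 had other combinations, and 0 were lower by 0.5 at heading in both. The median heading difference of the 321 was 1.38 in TAM 112 and 0.86 in TAM 111. Ranked by their mean grain filling difference, the members were spread through these 321, with the highest at ranks 11, 12 and 61 and 13 members in the upper part of the list.

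Of the 34, 19 were above a signal of 69 on all 24 arrays, and all 34 were above it on every dry grain filling array. The other 15 dropped to or below that level on at least 1 array. Only through the 6 dry grain filling arrays did 3 members pass the signal filter (Ta.23970.1, Ta.30504.1 and TaAffx.39516.1), since fewer than 3 of their other 18 arrays were above 69. For such probe sets the wet level lies near the lowest signals the array gives, and the fold on the log2(signal + 11.71) scale understates a change.

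Ta.23970.1.A1_at and TaAffx.100380.2.A1_at had by far the highest dry minus wet differences, Ta.23970.1 leading in TAM 112 and TaAffx.100380.2 in TAM 111. The signal of Ta.23970.1 is given first. It was 10790, 6904 and 998 on the dry TAM 112 arrays at grain filling, against 11.8, 60 and 11.3 on the wet ones. In TAM 111 it was 1265, 819 and 127 on the dry arrays and 13.9, 10.4 and 8.97 on the wet arrays. Each dry array thus lay far above the wet arrays, but the third dry array of each cultivar was several times lower than the other two. At heading this probe set gave 93.4, 15.4 and 22.5 in dry TAM 112 leaves, against 34.3, 63.5 and 14.9 in wet ones. In TAM 111 at heading it gave 10.2, 9.71 and 24.3 in dry and 32.8, 9.46 and 21.2 in wet leaves, so the groups overlapped at heading in both cultivars. The fitted dry minus wet difference at grain filling was 6.96 in TAM 112 and 4.54 in TAM 111 on the log2(signal + 11.71) scale. No wet array at grain filling was above 69 (0 of 3 in each cultivar), so these values depend on the constant added: a constant of 1 gave 7.63 and 5.42, and a constant 4 times as large gave 5.91 and 3.33. A second probe set of the same cluster, Ta.23970.1.A1_x_at, differed by 7.08 and 2.64 in these settings. It missed the rule through its TAM 112 heading difference of 1.05. The suffix x marks probes that may match several transcripts.

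The signal of TaAffx.100380.2.A1_at was 8336, 4792 and 3773 in dry TAM 112 leaves at grain filling, with 79.4, 63.1 and 38.2 in wet ones. The TAM 111 signals at grain filling were 4647, 5089 and 1168 in dry leaves, against 43.7, 87.4 and 95.9 in wet leaves. The differences were 6.26 in TAM 112 and 5.18 in TAM 111, and 5.67 and 4.68 with a constant 4 times as large, where its mean over the cultivars (5.17) exceeded that of Ta.23970.1 (4.62). At heading its dry TAM 112 arrays gave 379, 53.5 and 6.17, against 22.5, 67.7 and 52.4 in wet leaves. The heading difference of 0.46 in TAM 112 was close to the bound of 0.5, and it rested on the first dry array: without that array it was -0.71.

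The next largest mean difference belonged to Ta.9454.1.S1_at. Its dry minus wet difference was 5.36 in TAM 112 and 2.71 in TAM 111, a gap of 2.65 between the cultivars, next to 2.43 for Ta.23970.1. The wet TAM 112 signals lay near the lowest the array gives, and with a constant 4 times as large the gap was 1.86 for Ta.9454.1 and 2.58 for Ta.23970.1, so the order of these gaps is not settled. Dry TAM 112 leaves gave 2363, 1021 and 700 and wet ones 40, 14.1 and 7.16. Dry TAM 111 leaves gave 883, 1100 and 352, against 94.4, 70.2 and 136 in wet TAM 111 leaves. The dry arrays of the cultivars thus overlapped, while the wet TAM 112 arrays all lay below the wet TAM 111 arrays. At heading its signal stayed between 79.4 and 166 on all 12 arrays.

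Of the 10 members with the largest mean difference, the other 7 spanned 3.34 to 4.10 in TAM 112 and 2.46 to 2.97 in TAM 111. These were Ta.5720.1.S1_at, TaAffx.131344.1.S1_at, Ta.1316.2.S1_x_at, Ta.14510.1.S1_at, TaAffx.56718.1.S1_at and a pair from the cluster Ta.13337. Ta.5720.1 had signals of 1353, 981 and 550 in dry and 37.2, 26.4 and 78.3 in wet TAM 112 leaves at grain filling. TaAffx.131344.1 was more even among replicates, with 5942, 6437 and 5429 in dry TAM 112 leaves and 562, 292 and 367 in wet ones. In TAM 111 it gave 3888, 4086 and 2637 in dry leaves, against 521, 428 and 444 in wet leaves, with no overlap in either cultivar.

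**Figure D2:**
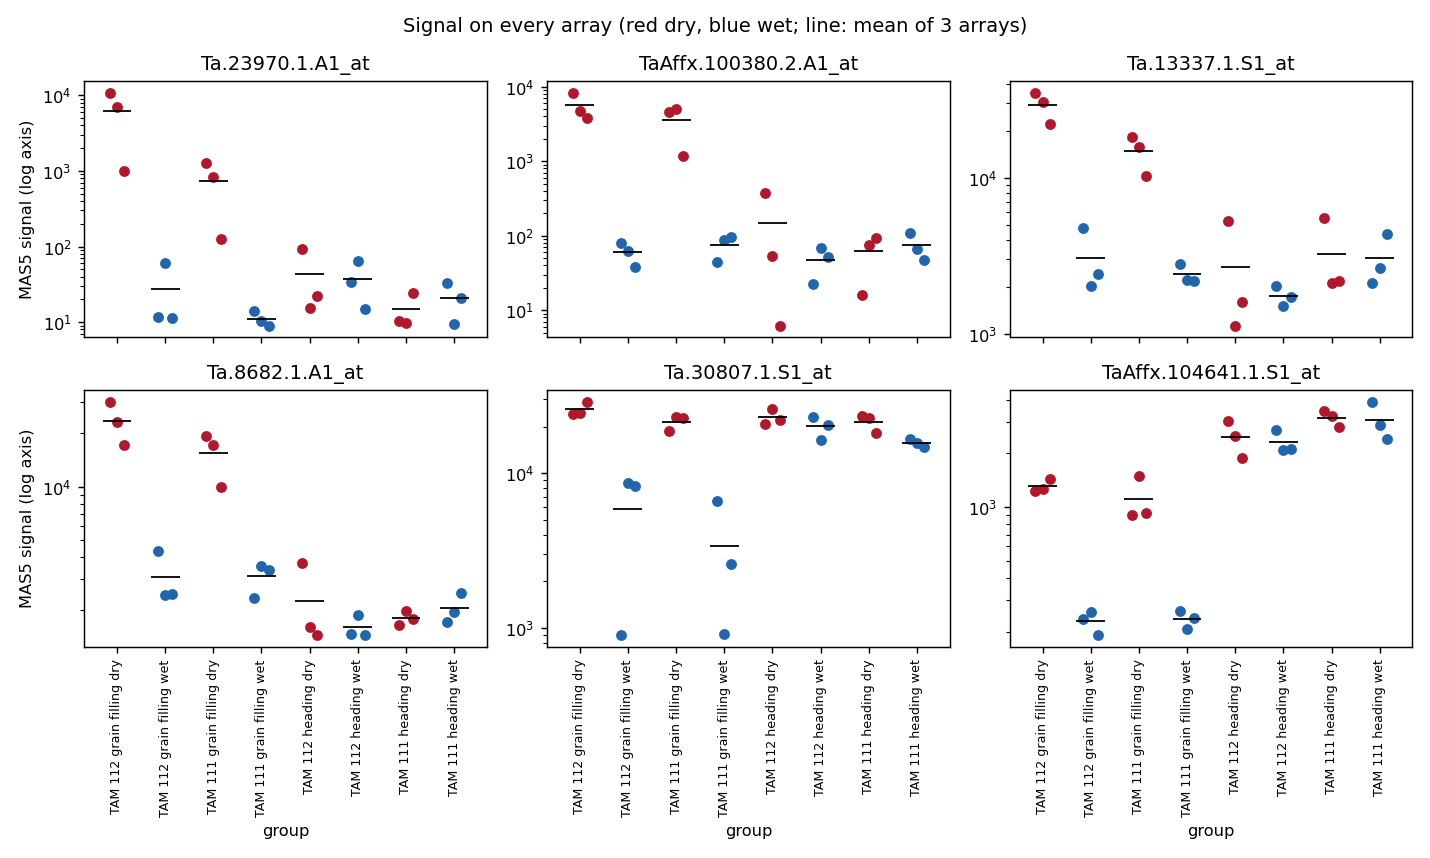
Signal of 6 probe sets on every array, on a log axis, by group; points are arrays, red dry and blue wet, and lines are means of 3 arrays. For Ta.23970.1, TaAffx.100380.2, Ta.13337.1 and Ta.8682.1 the dry grain filling arrays stand above all other groups. For Ta.30807.1 and TaAffx.104641.1 the wet grain filling arrays stand below all other groups.

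The cluster Ta.13337 held 3 of the 34 members, which may share a target or a related sequence and are not counted here as separate genes. Ta.13337.1.S1_at gave 34990, 30670 and 22010 in dry TAM 112 leaves at grain filling, against 4780, 2040 and 2433 in wet ones. In TAM 111 its signal was 18180, 15820 and 10270 in dry leaves and 2811, 2229 and 2178 in wet leaves. Its dry signal at grain filling was higher in each TAM 112 array than in each TAM 111 array. At heading it gave 5285, 1130 and 1607 in dry TAM 112 leaves and 2019, 1508 and 1721 in wet ones, with the first dry array well above the rest. Ta.13337.2.S1_x_at and Ta.13337.2.S1_at differed between dry and wet by 3.41 and 3.34 in TAM 112 and by 2.97 and 2.89 in TAM 111. A further probe set of the cluster, Ta.13337.3.A1_at, was tested but was no member. It differed by 0.58 in TAM 112 and 1.58 in TAM 111 at grain filling, and by -1.11 and 0.84 at heading. Its signals were low, with means of 81.5 in dry TAM 112 and 85.6 in dry TAM 111 leaves at grain filling.

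Ta.8682.1.A1_at and Ta.15042.1.A1_at were also among the members with the highest dry signals. Ta.8682.1 averaged 23420 ± 6490 in dry and 3081 ± 1080 in wet TAM 112 leaves at grain filling, and 15460 ± 4870 in dry and 3103 ± 661 in wet TAM 111 leaves (SD, n = 3 each). Ta.15042.1 gave 21690, 19280 and 9006 in dry and 1974, 1589 and 1020 in wet TAM 112 leaves, where its fold was 10.5. In TAM 111 it was 6.45-fold higher in dry leaves, at 12360, 9217 and 5385, against 1080, 1336 and 1548 in wet leaves. Wet levels of both probe sets were alike in the cultivars within the spread of the arrays, and the dry levels overlapped between cultivars. Signals of different probe sets depend on their probes, so no level is compared between members.

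Over the other 24 members the differences ran in TAM 112 from 2.08 to 3.71 and in TAM 111 from 2.03 to 3.10. Some of these had low signals in wet leaves. TaAffx.39516.1.S1_at was at 789, 809 and 176 in dry and 14.6, 34.8 and 48.8 in wet TAM 112 leaves at grain filling. In TAM 111 it was at 352, 212 and 117 in dry leaves and 8.22, 14.7 and 96.7 in wet ones, where the lowest dry and the highest wet array were close. Over all 34, mean signals in dry grain filling leaves spanned 280.6 to 29220 in TAM 112 and 136.5 to 21520 in TAM 111. In wet grain filling leaves they spanned 20.41 to 5906 in TAM 112 and 11.08 to 3356 in TAM 111.

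Several members lay close to a bound. The smallest TAM 111 differences at grain filling inside the rule were 2.03 for Ta.16251.2.S1_a_at and 2.04 for TaAffx.19463.2.S1_at, and the nearest probe sets outside, Ta.10281.1.S1_at and Ta.21438.2.A1_x_at, were at 1.98 and 1.97. For TAM 112 at grain filling Ta.30807.3.S1_at (2.08) and TaAffx.15847.4.S1_at (2.26) were the nearest inside, and Ta.5757.1.S1_at (1.98) and TaAffx.104931.3.S1_at (1.96) the nearest outside. At heading TaAffx.56718.1.S1_at lay just inside in TAM 112 at 0.49 and in TAM 111 at 0.49, as did TaAffx.100380.2 (0.46) in TAM 112 and Ta.30504.1.A1_at (0.49) in TAM 111. The nearest outside were TaAffx.23908.1.S1_at (0.52) and TaAffx.15430.1.A1_at (0.53) in TAM 112, and Ta.24899.2.A1_at (0.50) and TaAffx.79139.1.S1_at (0.57) in TAM 111. Failing a single bound only kept out 127 probe sets through TAM 111 at grain filling, 54 through TAM 112 at heading, 17 through TAM 112 at grain filling and 17 through TAM 111 at heading.

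Among the members the difference between dry and wet leaves at grain filling arose in 2 ways when set against heading. In 28 members the dry level at grain filling was at least 2-fold above the dry level at heading in both cultivars, with medians over all members of 3.36 in TAM 112 and 2.43 in TAM 111 on the log2 scale. The wet level changed by less than 2-fold between the stages in both cultivars in 23 members. In 5 others the wet level was at least 2-fold lower at grain filling than at heading in both cultivars (14.7% of the members), against 6.27% of the other 287 induced probe sets and 0.85% of all tested ones. These shares are a description, because the wet grain filling arrays are part of the difference that chose the members. The share of 14.7% also rests partly on wet TAM 112 replicate 1 at grain filling. Without that array 4 members no longer met the rule and 30 still did. Ta.30807.1, Ta.30807.3 and Ta.7881.1, each with a lower wet level, then fell below the grain filling bound in TAM 112. For Ta.30807.3 and Ta.7881.1 the wet TAM 112 level was then also less than 2-fold lower than at heading.

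Of the 5 members with a lower wet level, Ta.30807.1.S1_at is given first. It gave 24180, 24590 and 28930 in dry TAM 112 leaves at grain filling, against 899, 8591 and 8228 in wet ones. In TAM 111 it gave 18710, 22980 and 22880 in dry leaves and 6564, 906 and 2598 in wet leaves. At heading it was at 20660, 26190 and 22120 in dry and 23080, 16410 and 20640 in wet TAM 112 leaves, and at 23270, 22890 and 18150 in dry and 16650, 15630 and 14750 in wet TAM 111 leaves. The dry signal was therefore about the same at both stages (0.17 higher at grain filling in TAM 112 and 0.01 in TAM 111 on the log2 scale). The wet signal fell by 2.31 at grain filling in TAM 112 and by 2.64 in TAM 111, and the wet arrays of each cultivar differed among themselves by severalfold. Without the 3 TAM 111 arrays between the cultivars the wet TAM 111 signal fell by 1.92, and 6 members in all had a wet level at least 2-fold lower at grain filling in both cultivars.

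Ta.30807.3.S1_at, of the same cluster, moved with it. In wet leaves at grain filling it gave 358, 6628 and 7449 in TAM 112 and 3596, 538 and 1818 in TAM 111, with the same array lowest in each cultivar. Dry leaves at grain filling gave 8922, 10990 and 13960 in TAM 112, against 6347, 8299 and 8518 in TAM 111. The first wet TAM 112 array and the second wet TAM 111 array were also the lowest of their groups for Ta.7881.1.A1_at, which gave 26.8, 240 and 158 in wet TAM 112 leaves and 298, 6.95 and 147 in wet TAM 111 leaves. Its dry grain filling signals were 480, 621 and 986 in TAM 112, against 610, 534 and 965 in TAM 111. These 3 were also the only members beside TaAffx.15847.4 with a smaller dry minus wet difference in TAM 112 than in TAM 111, by 0.41 for Ta.30807.1, 0.24 for Ta.30807.3 and 0.31 for Ta.7881.1. Without the 3 TAM 111 arrays that lay between the cultivars, the second wet grain filling array among them, all 3 had the larger difference in TAM 112. It was 2.69 against 2.37 for Ta.30807.1, 2.08 against 1.58 for Ta.30807.3 and 2.52 against 1.64 for Ta.7881.1. The first wet TAM 112 array, also the lowest of its group in these members, was kept in that comparison. The direction therefore depends on which low wet array is left out and is not settled.

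TaAffx.104641.1.S1_at showed the lowest wet level relative to heading. It was at 1224, 1260 and 1431 in dry and 236, 259 and 192 in wet TAM 112 leaves at grain filling, and at 906, 1494 and 928 in dry and 262, 207 and 237 in wet TAM 111 leaves. At heading all 12 arrays lay between 1872 and 3882. Its signal was thus lower at grain filling in both waters, by 0.89 in dry and 3.27 in wet TAM 112 leaves and by 1.54 in dry and 3.61 in wet TAM 111 leaves on the log2 scale. Ta.1794.1.S1_at, with the same 2 wet arrays lowest as Ta.30807.1, had wet levels lower by 1.40 in TAM 112 and 1.53 in TAM 111 and dry levels higher by 1.42 and 0.64 at grain filling in these cultivars. In the opposite direction, Ta.16251.2 and Ta.20465.1.S1_at had wet levels at least 2-fold higher at grain filling in both cultivars, and their dry levels were higher still.

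**Figure D3:**
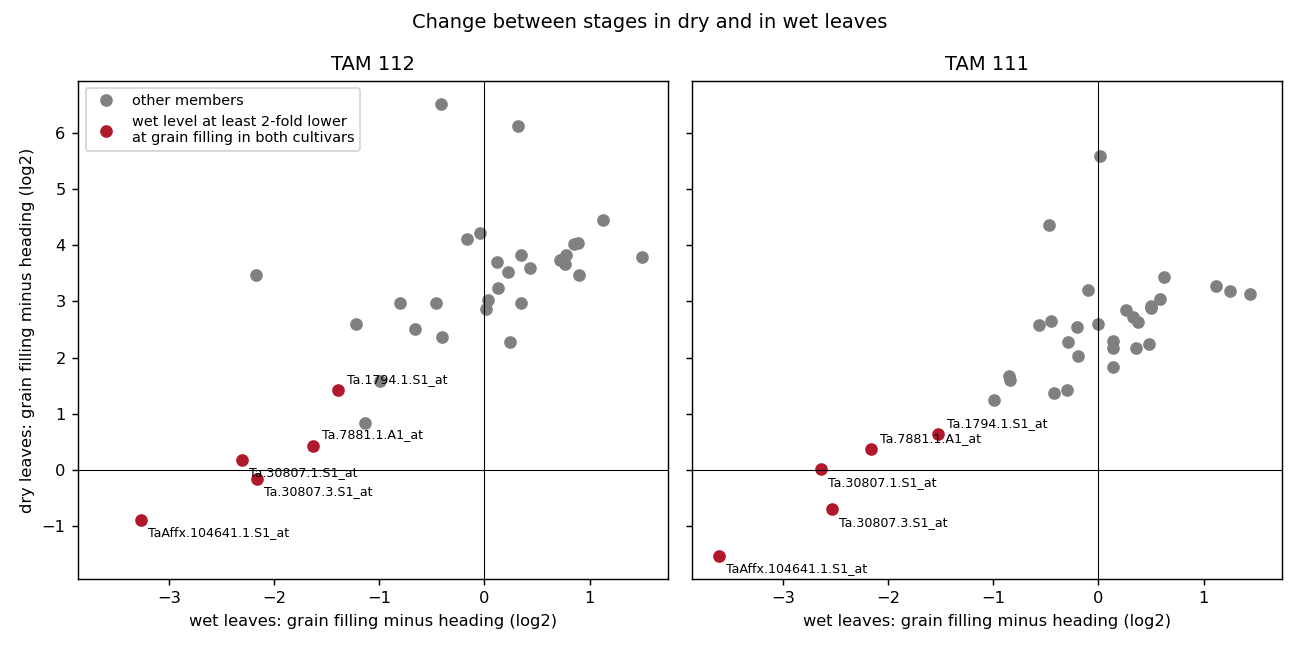
Change of each of the 34 probe sets between the stages, grain filling minus heading on the log2 scale, in dry leaves (vertical) against wet leaves (horizontal), 1 panel per cultivar. The 5 red probe sets had a wet level at least 2-fold lower at grain filling in both cultivars, and their dry change lay between -1.54 and 1.42. Most grey points lie near 0 on the horizontal axis and above 1 on the vertical axis.

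The replicates of a group were further apart for the members than for all tested probe sets, unevenly over the groups. The median SD within a group was 0.58 over the members and 0.31 over all tested probe sets on the log2 scale. In dry grain filling leaves the mean over the 34 was 11.87, 11.80 and 11.03 on the 3 TAM 112 arrays and 11.02, 10.86 and 10.17 on the 3 TAM 111 arrays, against 7.97 to 8.24 and 7.92 to 8.23 in wet leaves of these cultivars. The array numbered 3 was the lowest of the 3 dry arrays in 29 members in TAM 112 and in 30 in TAM 111, and it was the lowest in 33.8% and 38.3% of all tested probe sets. Over the 321 induced probe sets, members included, these arrays also lay below the mean of their group: the mean deviation was -0.535 in TAM 112 and -0.511 in TAM 111 over the members, against -0.281 and -0.356 over the 321. Both arrays still lay above every wet array of their cultivar in each member. Without these 2 arrays, a choice made after seeing the data, the members' median difference was 3.55 in TAM 112 and 2.72 in TAM 111, and 57 probe sets met the rule, 33 of them among the 34.

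At heading 1 array stood apart. The first dry TAM 112 array was the highest of its 3 in 28 of the 34 members, as it was in 33% of all tested probe sets. The 3 dry arrays deviated from their mean by 0.712, -0.264 and -0.448 over the members, and by 0.748, -0.216 and -0.532 over the 321 induced probe sets, so the offset is not particular to the members. Over the members it lay a median of 0.87 above the mean of the wet arrays, 14 members were at least 1 higher, and TaAffx.100380.2 was 2.81 higher. The other 2 dry arrays had medians of -0.12 and -0.06 and no member (0) at least 1 higher. Without the first array the median heading difference in TAM 112 was -0.11, and 48 probe sets met the rule, of which 27 were among the 34. The array means of the dry TAM 112 leaves at heading were 9.30, 8.32 and 8.13, against 8.32, 8.39 and 8.56 in wet leaves.

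Among the replicates of dry groups, 1 of 3 RNA measures moved with part of this pattern and the other 2 went partly against it. The actin control probe sets at the 3′ and 5′ ends of the transcript give a log2 ratio that is high where RNA is degraded or incompletely copied. It was 3.36, 0.18 and -0.22 on the dry TAM 112 arrays at grain filling and 3.89, 2.95 and -0.26 on the dry TAM 111 arrays. It was 2.23, -0.42 and 0.57 on the dry TAM 112 arrays at heading. The array with the highest ratio in each of these 3 groups was also the one with the highest mean over the members. In dry TAM 111 leaves at heading the ratio was 1.98, 2.24 and 1.05, and there the second array, with the highest ratio, had the lowest mean (8.42). In wet grain filling leaves TAM 112 arrays gave ratios of 0.62, 1.45 and 1.52 and TAM 111 arrays ratios of 0.98, 0.60 and 2.94. The control probe sets of glyceraldehyde-3-phosphate dehydrogenase (GAPDH) gave -1.50, -0.54 and -1.15 on the dry TAM 112 arrays and -0.86, -2.02 and -2.22 on the dry TAM 111 arrays at grain filling, with the highest ratio on the second TAM 112 array and the first TAM 111 array. Those of elongation factor 1-alpha gave 4.91, 0.22 and -2.65 on the dry TAM 112 arrays at grain filling, highest on the first. They gave 0.25, -0.84 and 0.68 on the dry TAM 111 arrays at grain filling and -2.95, -3.98 and 0.0069 on the dry TAM 112 arrays at heading, and in both groups the highest ratio was on the third array, which had the lowest mean over the members. GAPDH ratios at grain filling averaged -1.06 in dry and -2.73 in wet TAM 112 leaves, and -1.7 and -2.43 in TAM 111. Those of elongation factor 1-alpha averaged 0.825 and -0.341 in TAM 112 and 0.029 and -0.967 in TAM 111. Both were thus higher on average in dry leaves at grain filling. At heading dry and wet GAPDH means were -1.14 and -0.939 in TAM 112 and -1.34 and -1.44 in TAM 111. For elongation factor 1-alpha they were -2.31 and -1.23, and -1.78 and -2.03. The part of RNA quality in the members' values was not tested.

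**Figure D4:**
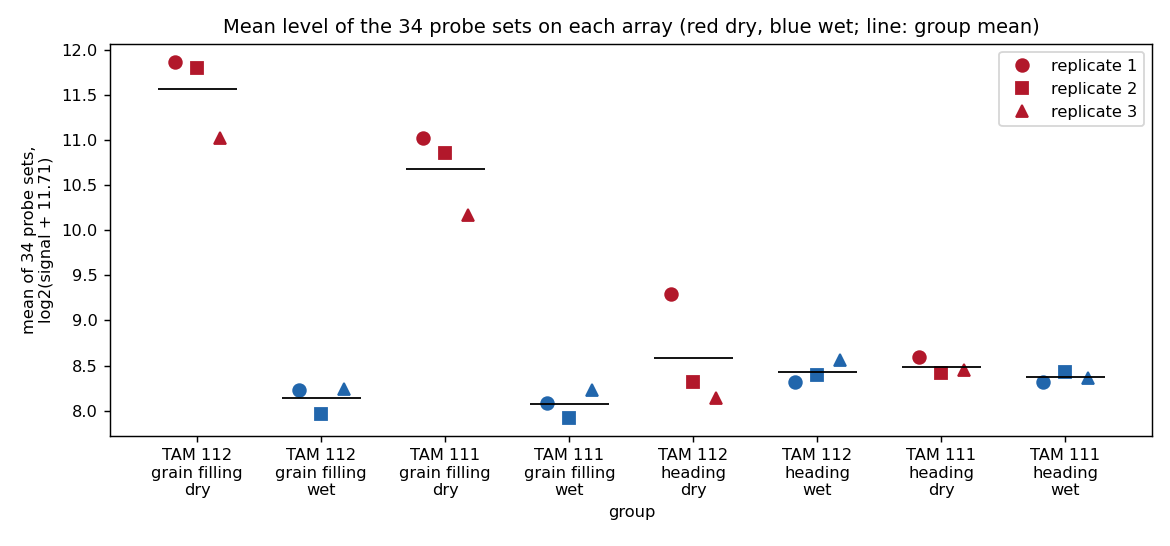
Mean of log2(signal + 11.71) over the 34 probe sets on each array, by group; marker shape gives the replicate number, red is dry, blue is wet and lines are group means. The third dry grain filling array lies lowest of its group in both cultivars (11.03 and 10.17), and the first dry TAM 112 array lies highest at heading (9.30).

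The difference between the cultivars, averaged over water, was not itself a value the rule used. Apart from the signal filter, scatter in the mean of dry and wet leaves is unrelated to scatter in their difference if both spread alike. At grain filling the members' median SD was 0.499 in dry and 0.601 in wet TAM 112 leaves, and 0.458 and 0.33 in TAM 111. With like wet levels, a larger dry response in 1 cultivar also raises its mean. These counts therefore do not tell a cultivar difference apart from a larger response. At grain filling 31 of the 34 were higher in TAM 112 than in TAM 111 when averaged over water (91.2%), against 45.4% of all tested probe sets. The members' median was 0.52 on the log2 scale, or 1.43-fold, and the median of all tested probe sets -0.03. By limma, 5 members were called higher in TAM 112 at an adjusted p below 0.05, where 4.21% of all tested probe sets were called, and 1 was called lower, where 6.67% were. Among the other 287 induced probe sets 6.97% were called higher and 1.74% lower, with a median of 0.30. Leaving out the 3 members that passed the signal filter only through dry grain filling arrays, 28 of 31 were higher (90.3%), with a median of 0.47, and 4 were called higher and 1 lower. Single arrays decided part of the count of 5, which was 1 without dry TAM 111 replicate 3, 10 without dry TAM 112 replicate 3, and 2 without wet TAM 111 replicate 1 or 3 or dry TAM 112 replicate 1 or 2 at grain filling.

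Of the members called higher, 2 were probe sets of the cluster Ta.13337. Ta.13337.2.S1_x_at was higher in TAM 112 by 1.54 ± 0.33 (SE; limma adjusted p = 0.00294). Its signal was 15170, 14250 and 8550 in dry TAM 112 leaves at grain filling, against 5119, 4728 and 1939 in dry TAM 111 leaves. Wet leaves gave 1736, 977 and 874 in TAM 112 and 507, 376 and 478 in TAM 111, so the cultivars did not overlap in either water. Ta.13337.2.S1_at was higher by 1.37 ± 0.36 (SE; limma adjusted p = 0.0154) and did not overlap either, and without dry TAM 111 replicate 3 its adjusted p was 0.0562. The third member of the cluster, Ta.13337.1, had a difference of 0.63 that was not called (limma adjusted p = 0.214).

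Ta.8085.1.S1_at was higher in TAM 112 by 0.84 ± 0.24 (SE; limma adjusted p = 0.0255). Its dry signals at grain filling were 5380, 6153 and 3032 in TAM 112 and 1723, 1603 and 1108 in TAM 111, and its wet signals 561, 326 and 221 in TAM 112, against 261, 524 and 288 in TAM 111. The cultivars thus stood apart in dry leaves and overlapped in wet ones, and its dry minus wet difference was 1.66 larger in TAM 112. Ta.12219.1.A1_at was higher by 0.69 ± 0.20 (SE; limma adjusted p = 0.0281), with 13870, 10810 and 7058 in dry TAM 112 leaves and 5945, 5994 and 3079 in dry TAM 111 leaves. Each of these calls was lost in 7 of the 37 other settings, at limma adjusted p up to 0.0806 for Ta.8085.1 and 0.0976 for Ta.12219.1. For both, 6 of these settings left out a single grain filling array, namely wet TAM 112 replicate 1, dry TAM 112 replicate 1 or 2, wet TAM 111 replicate 1 or 3, or dry TAM 111 replicate 3.

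Ta.23970.1 had the highest estimate, 1.79 ± 0.55 (SE; limma adjusted p = 0.039), and the least stable call. In dry leaves its signals in TAM 112 (998 to 10790) and TAM 111 (127 to 1265) overlapped through the third TAM 112 array. The call was lost in 13 of the 37 other settings, with limma adjusted p up to 0.13, including a pseudocount of 1, 7 that left out 1 grain filling array and the one without the 3 TAM 111 arrays that lay between the cultivars. The other 5 called members kept their calls without those 3 arrays. It passed the signal filter only through its dry grain filling arrays, where it is high in both cultivars, so its call is given as a value and supports nothing.

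Ta.6820.1.S1_at was the 1 member called lower in TAM 112, by 0.66 ± 0.17 at grain filling (SE; limma adjusted p = 0.014) and by 0.93 ± 0.17 at heading (SE; limma adjusted p = 0.0012). It was at 3799, 3319 and 2050 in dry TAM 112 leaves at grain filling, against 4573, 4384 and 3374 in dry TAM 111 leaves. Wet leaves at that stage gave 660, 504 and 429 in TAM 112, against 951, 767 and 1200 in TAM 111. At heading the dry arrays gave 793, 586 and 473 in TAM 112 and 1370, 818 and 1317 in TAM 111, and the wet arrays 392, 399 and 547 in TAM 112, against 919, 798 and 892 in TAM 111. The cultivars overlapped only in dry leaves at grain filling, and both calls held in all 37 other settings. Its water response was of like size in the cultivars, at 2.47 in TAM 112 and 2.08 in TAM 111. A further probe set of the cluster, Ta.6820.2.S1_a_at, did not share this cultivar difference. In dry leaves at grain filling it averaged 2953 in TAM 112 and 2139 in TAM 111, and in wet ones 757.8 and 915.1. At heading it averaged 1242 in TAM 112 and 1368 in TAM 111 in dry leaves, and 861.8 and 835.5 in wet ones.

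**Figure D5:**
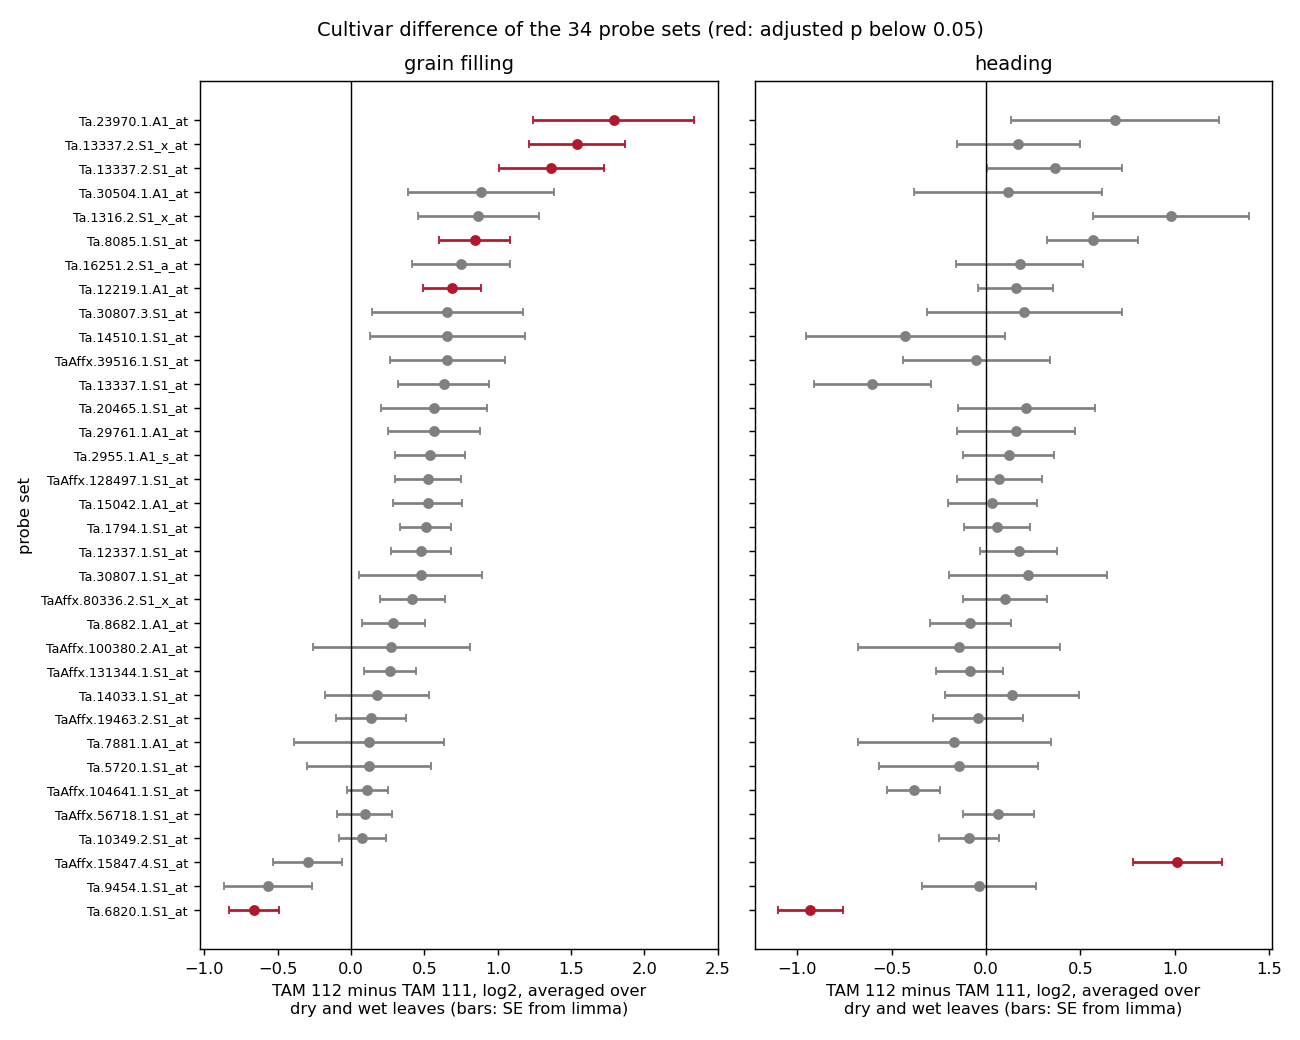
TAM 112 minus TAM 111 on the log2 scale, averaged over dry and wet leaves, for each of the 34 probe sets at grain filling (left) and heading (right), with SE from limma as bars and red for an adjusted p below 0.05. At grain filling 31 points lie above 0 and 6 are red, and at heading 21 lie above 0 and 2 are red.

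At heading the members' median cultivar difference was 0.08, with 21 of the 34 above 0. By limma 1 member was called higher in TAM 112, against 2.01% of all tested probe sets, and 1 lower, against 2.88%. The one called higher was TaAffx.15847.4.S1_at, by 1.01 ± 0.24 (SE; limma adjusted p = 0.00992). Its dry heading signals were 246, 73.6 and 179 in TAM 112 and 78.5, 75.3 and 57.8 in TAM 111, and its wet ones 97.3, 164 and 112 in TAM 112 and 46.9, 59.9 and 53.1 in TAM 111. At grain filling this probe set differed by -0.30 between the cultivars, which was not called (limma adjusted p = 0.48). At heading TaAffx.15847.2.S1_at of its cluster averaged 215 in TAM 112 and 244 in TAM 111 in dry leaves, and 153 and 112 in wet ones. TaAffx.15847.5.S1_at averaged 66.8 and 61.5 in dry and 79.4 and 51.7 in wet leaves. TaAffx.15847.7.A1_at averaged 61.8 and 54 in dry and 47.3 and 42.3 in wet leaves. All these signals, like those of TaAffx.15847.4, were low. The change of the cultivar difference between the stages itself was called for 0 of the 34, with 0% of all tested probe sets called higher and 0.00267% lower, and 4 of the 34 had an unadjusted p below 0.05, 3 higher and 1 lower at grain filling. A cultivar difference that depends on stage was therefore not shown for any member.

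Seen within 1 water treatment, the cultivars were further apart in dry than in wet leaves at grain filling. In 13 of the 34 all dry TAM 112 arrays lay above all dry TAM 111 arrays, against 11.2% of all tested probe sets, and 0 lay wholly below, against 15.5%. In wet leaves 2 lay wholly above, both of them Ta.13337.2 probe sets, against 8.05% of all tested ones. Another 2, Ta.6820.1 and Ta.9454.1, lay wholly below in wet leaves, against 8.99%. The median difference between the cultivars was 0.85 in dry and 0.14 in wet leaves. The gap between dry and wet leaves is the difference in water response between the cultivars, so these values carry no test. In dry leaves at heading 1 member lay wholly above and 1 wholly below (7.75% and 10.1% of all tested probe sets), and in wet leaves 3 lay above and 2 below (8.71% and 8.99%).

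By the form of their identifiers, 25 of the 34 were Ta. probe sets (73.5%, against 61.9% of those tested) and 9 were TaAffx. probe sets. In 29 (85.3%, against 72.6% of those tested) the identifier carried no suffix for probes shared between transcripts, and 3 carried the suffix x, 1 the suffix a and 1 the suffix s. The 34 fell into 31 transcript clusters, of which Ta.13337 held 3 members and Ta.30807 held 2.

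In 14 of these clusters the array had 27 further probe sets, which the rule did not take, and 24 of them passed the signal filter. At grain filling 21 of the 24 were higher in dry leaves in both cultivars, and 18 by more than 1 on the log2 scale, against 3.06% of all tested probe sets. Their medians were 2.26 in TAM 112 and 1.63 in TAM 111. A difference of at least 2 in both cultivars was reached by 4, and a heading difference below 0.5 in both by 11. Probe sets of 1 cluster can share sequence with the member, so they are not separate evidence.

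Some clusters followed their member closely. The 3 further probe sets of Ta.10349 differed by 2.03 to 2.30 in TAM 112 and by 1.68 to 1.91 in TAM 111 at grain filling, and by 0.22 or less in size at heading. Their member Ta.10349.2.S1_at was at 2.82 and 2.45 at grain filling and gave 8061, 8487 and 7962 in dry TAM 112 leaves, against 818, 1143 and 1603 in wet ones. It was among the 5 members that met the rule whichever array was left out. The cluster TaAffx.15847 went another way, as TaAffx.15847.5.S1_at (-0.97 and -0.90) and TaAffx.15847.7.A1_at (-0.76 and -0.21) had lower dry than wet signals at grain filling, where the member TaAffx.15847.4 was at 2.26 and 2.36 in TAM 112 and TAM 111. TaAffx.100380.1.A1_at differed by 4.59 in TAM 112 and 3.47 in TAM 111 at grain filling, but also by 1.47 and 0.63 at heading.

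None of the genes known by name on this array met the rule (0 members in each list), and those nearest to it show how the heading bounds worked. The LEA protein gene LEA1 gave 4091, 3229 and 2032 in dry TAM 112 leaves at grain filling, against 47.4, 18.6 and 6.95 in wet ones, and 1668, 1618 and 1029 in dry TAM 111 leaves, against 40.8, 75.5 and 76.2. At heading its dry TAM 112 signals were 562, 138 and 137, against 81, 46.6 and 47.7 in wet leaves, a difference of 1.77 that kept it out. Of the LEA and dehydrin list, 2 of 3 genes were tested and both were called higher at grain filling in both cultivars by limma, where 13.5% of all tested probe sets were called higher in TAM 112 and 9.32% in TAM 111. The small heat shock protein gene hsp16.9A (1 of 1) was called higher at grain filling too, and its heading differences were 1.48 in TAM 112 and 0.56 in TAM 111. It was above 69 on dry arrays only, and passed the signal filter through these. Its wet grain filling signals were 2.24 to 17.8 in TAM 112 and 2.87 to 3.38 in TAM 111, near the lowest the array gives. At heading its dry TAM 112 arrays gave 149.5, 189.5 and 10.8, against 19.2, 5.74 and 51 in wet leaves, so they overlapped.

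The other lists gave the setting of the members in the leaf. Of all tested probe sets, 13.5% were called higher and 18.2% lower in dry leaves at grain filling in TAM 112, and 9.32% and 9.6% in TAM 111. Of 5 genes of fructan and starch metabolism, 4 were called higher in dry leaves at grain filling in TAM 112 and 2 in TAM 111. Among those called in TAM 112, AGP-S differed by only 0.26 on the log2 scale. BMY1, also among them, had low signals, with means of 68.4 in dry and 11.6 in wet leaves. Of 3 defence genes 2 were called higher and 1 lower in each cultivar, and of 6 detoxification genes 1 was called higher and 2 lower in TAM 112 and 1 higher in TAM 111. The 7 genes of photosynthesis taken as leaf markers had 5 called lower in TAM 112, where 18.2% of all tested probe sets were, and 4 in TAM 111, where 9.6% were. Their summed signal was 203200 to 222700 in dry and 278500 to 295700 in wet TAM 112 leaves, and 202600 to 215400 in dry and 246800 to 292400 in wet TAM 111 leaves. The part of this lower leaf marker signal in the members' values was not tested. Of 8 grain storage protein genes 3 were tested and 0 called in either direction by limma, and the same held for the 1 pollen gene. At an unadjusted p below 0.05 there were 0 grain genes in either cultivar and 0 pollen genes in TAM 112, and in TAM 111 the pollen gene was lower.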

How the data were processed

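The authors deposited 1 intensity value per probe set and array, a linear MAS5 signal per the submitters' processing notes, whose version is not given in the sources used here. After trimming 2% from each end the mean signal was 500.1 on every array, and median signals ran from 60.5 to 77.3. Precision is limited by the small number of arrays per group. Control probe sets with the AFFX prefix (111) were left out.

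From the deposited signals, log2 values were computed after adding a pseudocount of 11.71, equal to the 20th percentile over the whole table. Probe sets with a signal above 69 on at least 3 arrays were kept (61.3% of 61179). With 1 mean per group, a linear model of all 24 arrays was fitted in limma 3.58.1 in R 4.3.3, using eBayes and a variance trend (16 residual and 5.53 prior degrees of freedom). Calls used a Benjamini-Hochberg adjusted p below 0.05 over 37516 probe sets. The fit was tested on simulated data. Levels are means with SD of 3 arrays, and folds are 2 raised to the log2 difference.

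The members and gene lists were chosen with earlier results of these data known. Named are the 10 members with the largest mean grain filling difference, the 8 with the highest dry signal, up to 4 per direction with the smallest adjusted p in each cultivar comparison, the 3 with the largest difference in response each way, and the 2 nearest each bound on either side. Other members named were chosen after their values were seen. The gene lists were matched by symbol or product name, and lists for senescence and abscisic acid matched no named gene.

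Same-numbered arrays of the cultivars had deviations from their group means that correlated at -0.0948 to 0.189, not above 0.1 in every pair, so the numbers were not taken to pair the samples. Alternatives were other pseudocounts, filters and normalizations, array weights, a replicate block, a fit without the trend or of 1 stage alone, and leaving out each array or sets of arrays.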

Additional observations from a re-analysis of the deposited data

How the results depend on the processing

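The set of 34 depends on single arrays. It held 24 to 56 probe sets when 1 array was left out, with 56 (34 of them shared) without dry TAM 111 replicate 3 at grain filling, 48 without dry TAM 112 replicate 1 at heading and 24 without dry TAM 112 replicate 3 at heading. In 2 choices made after seeing the data it held 57 without both dry grain filling arrays numbered 3, and 70 (26 shared) when dry heading TAM 112 replicate 1 was left out as well. A pseudocount of 1 gave 39 (27 shared), 1 that was 4 times as large 27 (23 shared), and the set without the 3 TAM 111 arrays that lay between the cultivars 33 (21 shared). The count of members higher in TAM 112 at grain filling, 5 in the text, was 3 in the fit of 1 stage alone, 3 without the variance trend, 8 without both dry arrays numbered 3 and 10 with the heading array left out too. Leaving out 1 array it ranged from 1 (without dry TAM 111 replicate 3) to 10 (without dry TAM 112 replicate 3), with 2 without wet TAM 111 replicate 1 or 3 or dry TAM 112 replicate 1 or 2. At heading the count higher was 0 with the filter at the 75th percentile, where the probe set called, TaAffx.15847.4, was not tested. The count lower was 1 to 2 on leaving out 1 array, and 2 without all 3 arrays named above. The cause of these moves was not tested. With the replicate number as a block the counts were 5 higher and 1 lower at grain filling and 1 and 1 at heading, and the block changed no call. Of 204 differences of the members at grain filling under another pseudocount or quantile normalization, 186 moved by less than the spread between replicates, 4 were larger, 14 smaller and 0 reversed.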
